A study of Mus musculus with 2 samples.

Results

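Nr4a2, Pitx3, Lmx1a, Lmx1b, Foxa1, Foxa2 and Nkx6-1 are transcription factors of the ventral midbrain that are used to define dopamine neurons and their progenitors. They were taken by gene symbol, and are 7 of the 43346 genes measured. RNA was measured in whole midbrain dissected from healthy mice on the day of birth (0 days), with no treatment named, strain B6NTac;B6NCrl/Lap, with males and females pooled. The study has 1 group of 2 libraries from separate isolates. Replicate 1 came from 15 mice and replicate 2 from a pool whose size the labels do not state. Total RNA longer than 200 nucleotides, depleted of ribosomal RNA, was sequenced as read pairs that keep strand. The depth was 46685706 counts for replicate 1 and 72779229 for replicate 2. With 1 group there are no conditions to compare, so the values below describe the tissue and how far the isolates differed.

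Dopamine neurons of the midbrain arise from the floor plate, the ventral midline of the neural tube. Foxa1 and Foxa2, forkhead factors, act early in the floor plate downstream of Sonic hedgehog, and Lmx1a and Lmx1b, LIM homeodomain factors, specify the progenitors there. Nr4a2 (also called Nurr1), an orphan nuclear receptor, is needed for the transmitter genes in the postmitotic neurons. Pitx3, a paired-like homeodomain factor, is needed for the survival of part of them. Nkx6-1, a homeodomain factor, is best known from ventral progenitors beside the floor plate, where it is linked to motor and red nucleus neurons. In whole tissue, fewer cells of a type and less RNA per cell cannot be told apart.

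The sequences shown here belong to Nr4a2 and Foxa2, the factors whose estimated transcripts differed most between the isolates. Stretches of 250 bases before annotated start sites are given 5′ to 3′ on the gene's own strand, from RefSeq on GRCm38.p6. The Nr4a2 window lies before the far upstream start, shared by the transcripts Nr4a2-203 and Nr4a2-206. The windows of Foxa2 lie before the starts of Foxa2-201, Foxa2-202 and Foxa2-203. The Foxa2-202 window falls in an intron of Foxa2-201, and the Foxa2-203 window in an intron of Foxa2-202. All are in lower case because none held a motif of those searched below.
Nr4a2-206 start (chr2:57124004-57124253, minus strand): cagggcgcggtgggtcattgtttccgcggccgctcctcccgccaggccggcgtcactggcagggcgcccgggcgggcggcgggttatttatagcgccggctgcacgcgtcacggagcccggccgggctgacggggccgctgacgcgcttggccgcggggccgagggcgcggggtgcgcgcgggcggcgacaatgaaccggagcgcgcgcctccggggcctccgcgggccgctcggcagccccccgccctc
Foxa2-201 start (chr2:148046970-148047219, minus strand): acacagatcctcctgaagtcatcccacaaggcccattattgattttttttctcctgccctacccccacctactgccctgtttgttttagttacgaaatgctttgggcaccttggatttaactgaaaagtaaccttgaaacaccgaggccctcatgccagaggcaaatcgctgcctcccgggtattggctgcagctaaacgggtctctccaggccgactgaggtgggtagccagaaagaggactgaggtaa
Foxa2-202 start (chr2:148045949-148046198, minus strand): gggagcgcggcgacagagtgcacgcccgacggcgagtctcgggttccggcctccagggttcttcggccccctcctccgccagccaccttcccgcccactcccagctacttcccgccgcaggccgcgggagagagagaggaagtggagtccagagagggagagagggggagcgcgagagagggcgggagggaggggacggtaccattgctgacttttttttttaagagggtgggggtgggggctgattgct
Foxa2-203 start (chr2:148045465-148045714, minus strand): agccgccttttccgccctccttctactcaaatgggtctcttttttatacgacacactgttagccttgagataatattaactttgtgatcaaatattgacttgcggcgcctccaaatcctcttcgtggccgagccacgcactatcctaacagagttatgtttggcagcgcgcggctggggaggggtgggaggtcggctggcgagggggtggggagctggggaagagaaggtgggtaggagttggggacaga

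The transcripts also differ in how exons are joined. For each gene a junction that differs between the transcripts named below is given with 15 bases on each side. All of these bases code in at least 1 transcript of the gene. Other junctions that differ are not printed. The Nr4a2-201 junction also occurs in Nr4a2-202 and Nr4a2-203, and the Foxa2-202 junction in Foxa2-201. Capitals mark the exon after the junction. Nr4a2-201 and Nr4a2-206 leave the same exon at base 57109063 and enter the next at 57108739 and 57108618, so that Nr4a2-206 leaves out 121 bases at this junction. Foxa2-202 and Foxa2-204 leave base 148045827 and enter at 148044824 and 148044299, so that Foxa2-204 leaves out 525 bases.
Nr4a2-201 junction: gcgcttagcatacagGTCCAACCCAGTGGA
Nr4a2-206 junction: gcgcttagcatacagAATATGAACATCGAC
Foxa2-202 junction: tacgcggagcccgagGGCTACTCTTCCGTG
Foxa2-204 junction: tacgcggagcccgagAACCAGCAGCGCTGG

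Levels are in TPM, a transcript abundance scale in which a count is divided by the length of the transcript that could give reads. TPM can therefore be compared between genes of 1 library. RNA other than that of protein-coding genes takes up part of this scale, so that 1 TPM here corresponds to 4.47 TPM in replicate 1 and 5.06 in replicate 2 once TPM is rescaled to the protein-coding genes. A gene was counted as detected at 1 TPM or more in both libraries. Nr4a2, Foxa2 and Lmx1b reached this level, 3 of 7, beside 27.7% of all genes and 53.8% of protein-coding genes. Lmx1a, Pitx3, Foxa1 and Nkx6-1 did not, but each had reads in both libraries. All 7 passed 1 TPM once TPM was rescaled to the protein-coding genes. The rescaling raises every protein-coding gene, and the share of them that passed 1 TPM on that scale was not computed. Together the 7 factors held 1702 counts in replicate 1 and 3162 in replicate 2, or 7.65 and 8.70 TPM.

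Nr4a2 led the set at 2.70 TPM in replicate 1 and 2.68 in replicate 2 (638 and 1107 counts). Its mean of 2.69 ± 0.0141 (SD, n = 2) was above that of 55.3% of protein-coding genes. The gene lies on the minus strand of chromosome 2, from 57106830 to 57124003 on mm10. The deposited 95% credibility bounds, which describe how surely reads were assigned within a library, ran from 2.48 to 3.00 TPM in replicate 1 and from 2.51 to 2.88 in replicate 2. They did not overlap those of any other factor.

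The forkhead factors were far apart. Foxa2 stood at 1.51 and 2.03 TPM (187 and 248 counts), a mean of 1.77 ± 0.368, with bounds of 1.28 to 1.95 and 1.63 to 2.42. These levels depend on the mean transcript length assigned to Foxa2, 1896 bases in replicate 1 and 1141 in replicate 2. Foxa1 stood at 0.44 and 0.41 TPM (99 and 170 counts), a mean of 0.425 ± 0.0212. Foxa2 exceeded Foxa1 in both libraries, by a log2 ratio of 1.58 in replicate 1 and 2.06 in replicate 2. Foxa2 lies at 148042877 to 148046969 on chromosome 2 and Foxa1 at 57540628 to 57546916 on chromosome 12, both on the minus strand. The longest stretch that their annotated transcripts share is 38 bases, shorter than a sequencing read.

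The LIM homeodomain factors were closer. Lmx1b stood at 1.49 and 1.54 TPM (515 and 984 counts), a mean of 1.515 ± 0.0354. Lmx1a stood at 0.83 and 1.16 TPM (190 and 485 counts), a mean of 0.995 ± 0.233, so that it passed 1 TPM in replicate 2 alone. Its bounds of 0.71 to 0.95 in replicate 1 and 1.05 to 1.26 in replicate 2 did not overlap. Lmx1b was the higher in both libraries, by a log2 ratio of 0.77 and 0.38, less than 2-fold. Lmx1b lies on the minus strand of chromosome 2 (33560965 to 33640511), and Lmx1a on the plus strand of chromosome 1 (167689237 to 167848741). Their longest shared stretch is 21 bases.

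Pitx3 stood at 0.40 and 0.57 TPM, a mean of 0.485 ± 0.120. This rests on 34 counts in replicate 1, with an exact 95% Poisson interval of 23.5 to 47.5, and 89 in replicate 2, with 71.5 to 109.5. The intervals hold counting error alone. Reads that carry no molecular identifier need not be separate molecules, so that this error may be larger than the intervals show. Pitx3 was also the factor whose level was least settled by the estimate: its bounds ran from 0.35 to 1.38 TPM in replicate 1 and from 0.51 to 1.11 in replicate 2, and the deposited posterior mean was 0.78 and 0.77. It lies on the minus strand of chromosome 19 (46135685 to 46148326). Nkx6-1 was the lowest, at 0.28 and 0.31 TPM (39 and 79 counts), a mean of 0.295 ± 0.0212, above that of 36.2% of protein-coding genes. It lies on the minus strand of chromosome 5 (101658139 to 101664996).

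**Figure D1:**
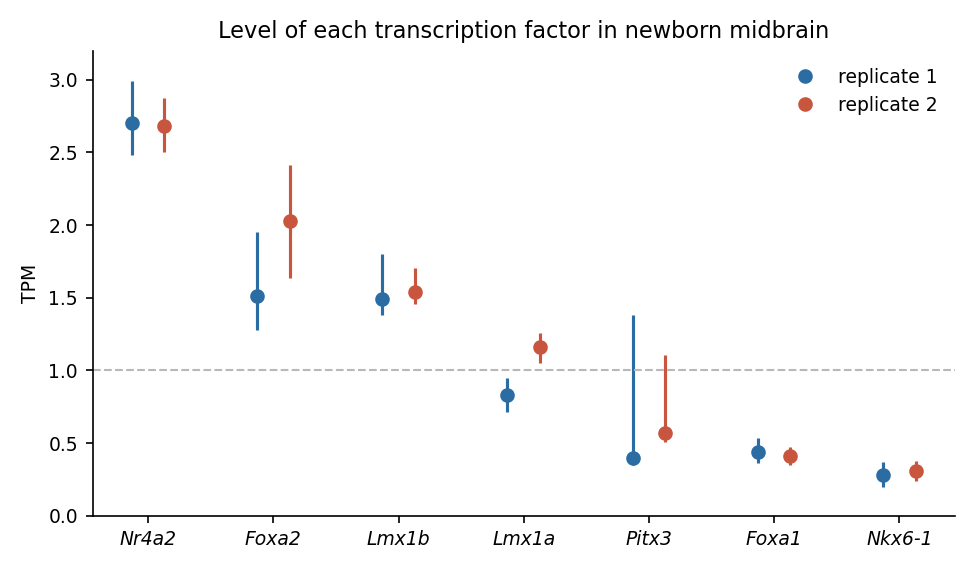
TPM of the 7 factors (vertical axis) in replicate 1 (blue) and replicate 2 (red), with the deposited 95% credibility bounds as bars and 1 TPM as a dashed line. Nr4a2 is highest at 2.70 and 2.68 TPM, Lmx1a lies on either side of 1 TPM, and the bars of Pitx3 are the widest for their level.

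In order of mean level the factors were Nr4a2, Foxa2, Lmx1b, Lmx1a, Pitx3, Foxa1 and Nkx6-1. The ranges over the libraries overlapped for the neighbours Foxa2 and Lmx1b, where the lowest Foxa2 value was 1.51 and the highest Lmx1b value 1.54. They overlapped as well for Pitx3 and Foxa1, at 0.40 and 0.44. The other neighbours did not overlap. For each pair of factors the log2 ratio of TPM + 0.1 was taken in each library, and the pair was counted as apart where both libraries gave 2-fold or more in 1 direction. Of the 21 pairs of factors 11 were apart, 52.4%, beside 71.5% of all pairs among the 18554 genes that reached 10 counts summed over the libraries. With a pseudocount of 1 TPM in place of 0.1 the count was 3, Nr4a2 over Pitx3, Foxa1 and Nkx6-1. The share of all pairs was not computed with that pseudocount.

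Nr4a2 was apart from Lmx1a (log2 1.59 and 1.14), Pitx3 (2.49 and 2.05), Foxa1 (2.37 and 2.45) and Nkx6-1 (2.88 and 2.76). Foxa2 and Lmx1b were each apart from Pitx3, Foxa1 and Nkx6-1, by 1.29 to 2.38 on the log2 scale. Their calls against Pitx3 were lost with the posterior mean TPM, at 0.95 and 1.28 for Foxa2 and 0.93 and 0.95 for Lmx1b. Lmx1a was apart from Nkx6-1 by 1.29 and 1.62, and from Foxa1 in replicate 2 alone, at 0.78 and 1.30. The 3 highest factors were not apart from each other, nor were the 3 lowest, although Pitx3 was apart from Nkx6-1 by posterior mean (1.21 and 1.09). Nr4a2 over Lmx1b, at 0.82 and 0.76, came nearest to 2-fold among the 3 highest.

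The factors were then set beside their closest family members. Nr4a1, a nuclear receptor induced by activity, stood at 1.38 and 1.39 TPM, below Nr4a2 by less than 2-fold (log2 0.92 and 0.90 for Nr4a2 over Nr4a1). Nr4a3 stood at 0.41 and 0.60, with Nr4a2 higher by 2.46 and 1.99. Pitx1 stood at 0.70 and 0.34, above Pitx3 in replicate 1 and below it in replicate 2. Nkx6-2 stood at 1.76 and 1.84 TPM, and the ratio of Nkx6-1 to it was -2.29 and -2.24. Foxa3 and Nkx6-3 had 0 counts in both libraries, which allows up to 0.0650 CPM (3 counts, scaled to the library total) in replicate 1 and 0.0417 in replicate 2. The longest stretch shared with a named relative was 27 bases for Nr4a2 (with Nr4a3), 29 for Pitx3 (with Pitx1) and 17 for Nkx6-1 (with Nkx6-2). On counts scaled between the libraries, the scale used for every 2-fold call between them, none of these relatives with counts was past 2-fold. Pitx1 had 80 and 106 counts and a log2 ratio of -0.20 on that scale, while its TPM was lower in replicate 2 by more than 2-fold.

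All 11 genes of the dopamine neuron list were detected, at a median of 5.03 TPM, against a median of 0.995 for the 7 factors. Th, the rate-limiting enzyme of dopamine synthesis, stood at 5.09 and 4.97 TPM, the dopamine transporter Slc6a3 at 5.33 and 4.51, and the decarboxylase Ddc at 7.46 and 5.02. Ptpru, a receptor phosphatase, had the highest mean of the list, at 7.88 and 6.30 TPM, and the membrane protein Dlk1 was above it in replicate 1 and below it in replicate 2, at 8.25 and 4.01. Relative to Th in the same library, Nr4a2 stood at 53.0% and 53.9%, Foxa2 at 29.7% and 40.8%, and Lmx1b at 29.3% and 31.0%. Lmx1a stood at 16.3% and 23.3% of Th and Pitx3 at 7.86% and 11.5%. Foxa1 stood at 8.64% and 8.25%, and Nkx6-1 at 5.50% and 6.24%. Against Slc6a3, Nr4a2 stood at 50.7% and 59.4%, and against Ddc at 36.2% and 53.4%. These ratios do not show which cells held the RNA.

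The genes nearest in level among the 86 genes of all lists were found by the mean absolute difference in log2(TPM + 0.1) over the 2 libraries. Nr4a2 lay nearest to Rcor1 (2.42 and 2.74 TPM), a corepressor that Nr4a2 can recruit, then to the dopamine receptor Drd2 (2.40 and 2.64), with differences of 0.091 and 0.092, and to Msx1. Foxa2 lay nearest to the crystallin Crybb1 (1.54 and 2.10), then to Isl1 and Nkx6-2. Lmx1b lay nearest to Nr4a1, Gch1 and Crybb1. Lmx1a lay nearest to Gli1 (0.79 and 1.08), an effector and target of Sonic hedgehog, at a difference of 0.079, then to Slc5a7 and Gli2. Pitx3 and Foxa1 both lay nearest to Nr4a3, then Hoxa2 and Shh, at 0.046 for Pitx3 and 0.27 for Foxa1 against Nr4a3. The 3 genes nearest to Nkx6-1 included Tbr1 (0.25 and 0.20) and Neurog2 (0.21 and 0.42).

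Of 9 genes for protein partners of these factors all were detected, at a median of 5.595 TPM. Sfpq, an RNA-binding repressor, stood at 48.9 and 28.8 TPM, the histone demethylase Kdm1a at 39.1 and 27.0, and Ldb1, which binds LIM domains, at 26.8 and 26.1. The receptors Rxra, Rxrb and Rxrg, with which Nr4a2 can pair, stood at 3.93 and 3.71, 11.3 and 10.8, and 2.38 and 2.09 TPM. None of the 9 lay past 2-fold between the libraries on scaled counts. Of 11 genes of midbrain induction 6 were detected, beside 53.8% of all protein-coding genes. They were led by Otx2 (18.3 and 15.9 TPM), En2 (10.6 and 11.4) and En1 (6.98 and 7.48), homeobox genes of the midbrain. Shh was at 0.31 and 0.55 TPM, and Wnt1 at 0.07 and 0.06. Of 6 floor plate genes Ntn1 (14.7 and 12.2) and Spon1 (7.07 and 6.57) were detected. Of 5 neurogenesis genes 2 were detected, among them Msx1 (2.62 and 2.24), while Neurog2, the proneural factor of dopamine progenitors, stood at 0.21 and 0.42.

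**Figure D2:**
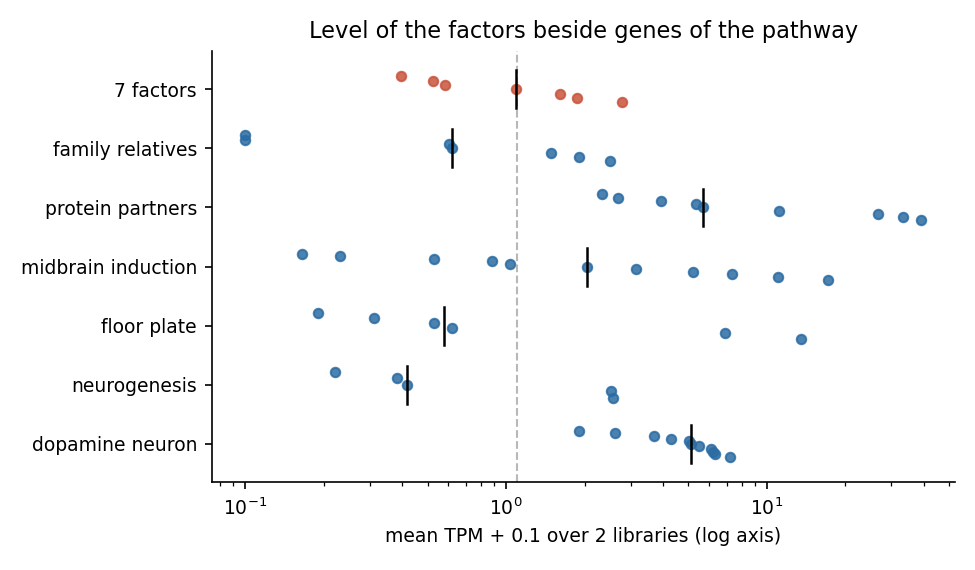
Mean TPM + 0.1 over both libraries (horizontal log axis) of the 7 factors (red) and of the genes of 6 lists (blue), with each list's median as a black line and the 1 TPM level dashed. The factors lie from 0.295 to 2.69 TPM, and all 11 dopamine neuron genes lie above 1 TPM.

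To compare the isolates, counts were scaled between the libraries by the trimmed mean of M-values (TMM) and given as the log2 ratio of replicate 2 over replicate 1. Each carries an exact binomial 95% interval for counting error. No factor was past 2-fold, 0 of 7, beside 17.0% of the 18554 genes tested. Among 6036 genes whose summed counts lay between those of the lowest and the highest factor the share was 11.3%. The median of the 7 was 0.33 and 6 lay above 0, while the median over all genes tested was 0.0050. This is 1 library against 1 library, with no replicate check, and no test was made.

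Lmx1a and Pitx3 stood highest, at 0.75 (interval 0.50 to 1.00) and 0.77 (0.20 to 1.40). Lmx1b was at 0.33 (0.17 to 0.49) and Nr4a2 at 0.19 (0.05 to 0.33). The intervals of these 4 lay above 0, but they hold counting error alone. How many of all genes had an interval without 0 was not counted. Among the 6036 genes of like summed counts the quartiles of the ratio were -0.34 and 0.39. Nkx6-1 at 0.40 (-0.16 to 1.01), Foxa1 at 0.17 (-0.19 to 0.55) and Foxa2 at -0.20 (-0.48 to 0.08) had intervals that held 0. Of the 11 dopamine neuron genes none lay past 2-fold on these counts and their median was 0.09.

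The ratio of deposited TPM gave lower values for 6 of the 7, beside a median TPM ratio of -0.27 over detected genes. This scale was added after the data were seen. For Foxa2 it gave the opposite sign, 0.43 against -0.20. The mean transcript length that the authors' estimate assigned to Foxa2 was 1896 bases in replicate 1 and 1141 in replicate 2, so that fewer scaled counts stood for a higher TPM. The TPM ratio was -0.01 for Nr4a2 and -0.10 for Foxa1, against 0.19 and 0.17 on scaled counts.

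**Figure D3:**
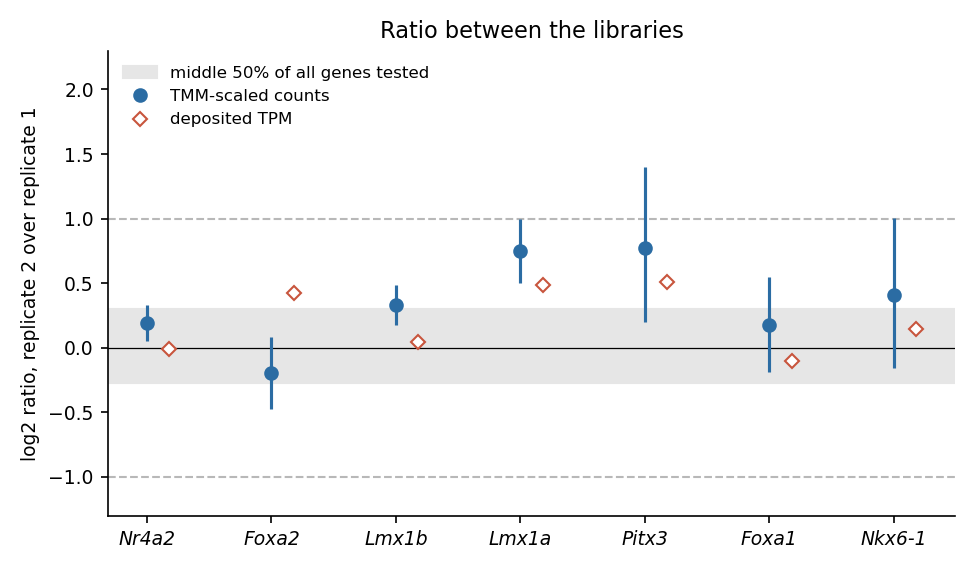
Log2 ratio of replicate 2 over replicate 1 for each factor, from TMM-scaled counts with exact binomial 95% counting intervals (blue) and from deposited TPM (open red diamonds). The grey band is the interquartile range over the 18554 genes tested and dashed lines mark 2-fold. Lmx1a and Pitx3 are highest at 0.75 and 0.77, and Foxa2 is at -0.20 by counts and 0.43 by TPM.

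Several of the factors are also made outside dopamine neurons, and genes of those other cells and tissues differed between the isolates. The counts of list genes below stand beside 9.21% of all genes tested past 2-fold higher in replicate 2 and 7.76% in replicate 1. Lmx1a is a factor of the roof plate and choroid plexus. Of 5 genes of these tissues 4 were past 2-fold higher in replicate 2, and the summed level of the list was 17.2 and 166 TPM. Ttr, the transthyretin gene of the choroid plexus, stood at 14.4 and 163 TPM and the folate receptor Folr1 at 1.05 and 2.19. Gdf7, a roof plate ligand, had 0 and 139 counts, and Wnt3a 0 and 10, while Kcnj13 stood at 1.71 and 0.83 TPM. Their part in the higher Lmx1a of replicate 2 was not tested.

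Pitx3 is expressed in lens and skeletal muscle as well. Of 5 muscle genes, Myod1 had 0 and 116 counts and Ckm 3 and 195, both past 2-fold, Acta1 stood at 2.58 and 4.17 TPM, Myog had 4 and 3 counts and Myf5 had 0 in both. The summed level was 2.65 and 5.92 TPM. Of 3 lens genes Crybb1 was the sole one detected, Cryaa was past 2-fold higher in replicate 1 at 17 and 11 counts, and Cryba1 was at 0 in both. The part of these tissues in the Pitx3 values was not tested.

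Lmx1b is also a factor of serotonin neurons. Of 5 serotonin neuron genes 4 were detected, with the transporter Slc6a4 at 7.68 and 5.05 TPM, Gata3 at 3.10 and 2.41 and the synthesis enzyme Tph2 at 3.55 and 1.65, and the summed level was 17.2 and 11.6 TPM. Fev, a transcription factor that defines these neurons, had 16 and 60 counts and was the only gene of this list past 2-fold on scaled counts (log2 1.27). Its TPM went the other way, at 0.82 and 0.62. Tph2 differed by more than 2-fold in TPM, but its scaled counts gave a log2 ratio of -0.82. Of 5 Hox genes of the hindbrain none was detected, but 4 were past 2-fold higher in replicate 2, with a summed level of 0.70 and 5.02 TPM. Hoxa5 had 2 and 432 counts, Hoxb3 46 and 419, Hoxb8 0 and 51 and Hoxb2 11 and 41. Their part in the Lmx1b values was not tested.

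Nkx6-1 marks motor neuron progenitors. Of 6 genes of cranial motor and red nucleus neurons 3 were past 2-fold higher in replicate 2, among them Phox2a (1 and 29 counts) and Chat (18 and 58). Pou4f1, a factor of the red nucleus, stood at 3.75 and 3.17 TPM, Isl1 at 1.45 and 2.26 and Slc5a7 at 1.10 and 1.00, and the summed level was 6.62 and 7.31 TPM. Foxa1 and Foxa2 are also factors of endoderm, where Alb had 17 and 4 counts, Afp 24 and 0 and Sftpc 0 in both, for a summed level of 0.30 and 0.02 TPM. Nr4a2 is also expressed in the cortex. Of 4 forebrain genes Neurod6 was detected at 1.24 and 1.83 TPM, Tbr1 stood at 0.25 and 0.20, and Emx1, with 53 and 30 counts, was past 2-fold higher in replicate 1. Their summed level was 2.31 and 2.41 TPM. The 3 genes of the subthalamic list, Barhl1 (7.88 and 9.02 TPM) and Barhl2 (5.97 and 5.06) among them, were all detected and none was past 2-fold. What share of each factor's RNA came from such cells was not tested.

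Some genes of the progenitor stage also lay past 2-fold. Shh (58 and 187 counts) and Fgf8 (1 and 12) in the induction list, Shh and Ferd3l (7 and 23) in the floor plate list, and Msx2 (25 and 96) and Neurog2 (31 and 117) in the neurogenesis list were past 2-fold higher in replicate 2. The counting interval of Ferd3l, -0.16 to 2.58, held 0, and that of Fgf8 was wide, 0.22 to 8.40. In the floor plate list 1 gene was past 2-fold higher in replicate 1. Foxa2 and Foxa1, which act in the floor plate, were not past 2-fold.

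The tables assign each gene's TPM among its annotated transcripts. Of 20 transcripts of the 7 factors 13 held at least 5% of their gene in either library and 7 were at 0 in both. Foxa1 and Nkx6-1 have no annotated transcript other than the one numbered 201, so their assignment to it was fixed in advance. Lmx1b and Pitx3, which have others, were each assigned whole to the transcript numbered 201, in both libraries. For Pitx3 this assignment was weak: the transcripts Pitx3-202 and Pitx3-203, of 326 and 418 bases, were at 0, but had upper credibility bounds of 0.82 and 0.28 TPM in replicate 1. By posterior mean, an alternative chosen after the data were seen, Pitx3-201 held 52.8% and 74.3%.

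Nr4a2-201, the full coding transcript of 3568 bases, held 86.5% of Nr4a2 in replicate 1 and 62.3% in replicate 2. Nr4a2-206, which is annotated as subject to nonsense-mediated decay (a route that destroys mRNA with a premature stop) and has the 121-base omission shown above, held 1.78% and 19.3%. It held 10.5 and 208 estimated counts, and its bounds of 0.003 to 0.198 TPM and 0.393 to 0.642 did not overlap. Nr4a2-202 held 7.05% and 12.4%, and the processed transcript Nr4a2-205 4.70% and 6.04%. By start site, the start at 57115038 carried 91.2% and 68.4%, and the far upstream start at 57124003, whose window is printed above, 1.78% and 19.3%. Nr4a2-203, the coding transcript from the same upstream start, was at 0 in both.

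The shares of Foxa2 differed more between the libraries. Foxa2-202, a coding transcript of 2070 bases, held 85.6% in replicate 1 and 25.2% in replicate 2, with bounds of 1.00 to 1.46 TPM and 0.331 to 0.646. Foxa2-204, of 865 bases and with the 525-base omission shown above, held 14.4% and 44.5%, but its bounds of 0 to 0.619 and 0.583 to 1.19 TPM overlapped. Foxa2-203, a processed transcript of 775 bases, held 0% and 30.3%, with bounds of 0 to 0.177 and 0.329 to 0.895 that did not overlap. As estimated counts, Foxa2-202 held 177 and 130, Foxa2-204 9.77 and 75.0, and Foxa2-203 0 and 43.2. As a share of these counts Foxa2-202 held 94.8% and 52.3%, since the shorter transcripts need fewer reads for the same TPM.

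Lmx1a-202 held 63.0% and 76.6% of Lmx1a, and Lmx1a-201 37.0% and 23.4%. The bounds of both overlapped between the libraries. In all, 4 of the 20 transcripts had bounds that did not overlap between the libraries, Nr4a2-201 and Nr4a2-206 and Foxa2-202 and Foxa2-203. Of the 20, 7 were assigned no TPM in either library. The TPM of detected genes was itself shifted between the libraries, by a median log2 ratio of -0.27. The share of all transcripts whose bounds did not overlap was not computed, so whether 4 of 20 is unusual cannot be said. These bounds come from the assignment of reads within a library and do not hold the variation between isolates.

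**Figure D4:**
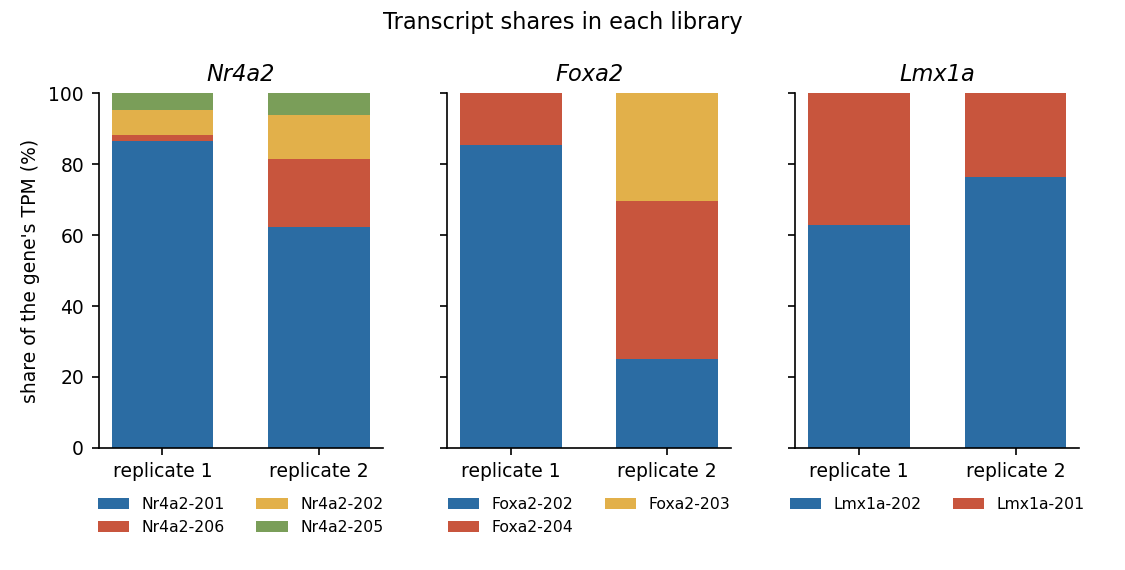
Share of the gene's TPM (vertical axis, percent) assigned to each transcript of Nr4a2, Foxa2 and Lmx1a in each library, as stacked bars. Nr4a2-206 holds 1.78% in replicate 1 and 19.3% in replicate 2, Foxa2-202 85.6% and 25.2%, and Lmx1a-202 63.0% and 76.6%.

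Genes within 1000 bases of a factor were examined, since reads can be shared where genes overlap. The libraries keep strand, and 2 of the 7 factors had such a neighbour. C130021I20Rik, annotated as antisense, starts 682 bases from the start of Lmx1b and runs the other way (33641193 to 33646354 on chromosome 2, plus strand). It was chosen for mention after its values were seen, at 2.09 and 4.76 TPM (401 and 1114 counts) and a log2 ratio of 0.87, against 0.33 for Lmx1b. It shares no base with Lmx1b. Gm38011, inside Lmx1b on the other strand, had 0 counts in both, and Elovl3, which overlaps Pitx3 by 10 bases on the other strand, had 1 and 3.

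For the 7 factors the RefSeq table held 9 windows of 250 bases, each before a RefSeq start. Their GC content had a median of 65.2% (range 50.8% to 80.0%), beside 52.4% over all 32817 windows, and the Nr4a2 window printed above was the one at 80.0%. They were searched on both strands for TGTTTAC (forkhead, present in 3.16% of all windows), AAAGGTCA (NR4A monomer, 1.34%), TAATCC (PITX, 6.25%) and TAATTA (homeodomain, 4.85%). The forkhead letters occurred in 1 of the 9, that of Foxa1, on the opposite strand and 141 bases before the RefSeq start. The other motifs occurred in none of the 9 windows. The Foxa1 window (57546112 to 57546361) and its match lie inside the gene as annotated by GENCODE, which runs from 57540628 to 57546916. Starts without a window were not searched. For Nr4a2 these included 57115038, which carried 91.2% and 68.4% of its TPM in replicate 1 and replicate 2. For Foxa2 they included 148046896, at 14.4% and 44.5%, while the windowed start at 148046969 was at 0 in both. The Nkx6-1 window lay inside the GENCODE transcript, with its RefSeq start 285 bases from the GENCODE start. The RefSeq start of Lmx1b was 587 bases from that of GENCODE. The 31 bases around the Foxa1 match are shown because Foxa1 is itself a forkhead factor. The match is in capitals as it reads on the gene's strand.
Foxa1 (chr12:57546234-57546264, minus strand): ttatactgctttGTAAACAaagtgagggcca
In 12 windows of 10 dopamine neuron genes the forkhead letters occurred at Dlk1 and AAAGGTCA at Ddc, and the others in none. A match is a description of the letters and no sign of binding.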

How the data were processed

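Gene and transcript tables of 2 libraries of newborn mouse midbrain were used. Per the notes deposited with the samples, they were made on mm10 with GENCODE M4. The aligner is not given in the sources used here, nor is the counting program. The authors deposited expected counts, which need not be whole, TPM with credibility bounds and posterior means, and the percent of each gene's TPM held by each transcript. Symbols and coordinates came from GENCODE M21 on the same assembly, which matched 42462 of 43346 genes, all 86 list genes and all 20 transcripts, 18 of them with the same length.

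Expected counts were rounded and scaled by TMM (edgeR 4.0.16), over the 18554 genes that reached 10 counts summed over the libraries. The scaling was tested on simulated data. Ratios were computed in Python 3.11.15 with 0.5 added to each count, and levels compared as TPM + 0.1. The libraries were not 1 library deposited 2 times, since 3148 genes lay more than 2-fold apart. With 1 group there is no test and no p-value. Protein sequences were not analysed here.

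The 7 factors and the 15 gene lists were chosen with earlier results of these data known. Named were every factor, the leading 3 genes of the lists, genes past 2-fold or at 0 in both libraries, the 3 list genes nearest to each factor, and transcripts holding at least 5%; others are named to complete a list. Some genes under this rule are not reported here. Alternatives were other scalings, thresholds, pseudocounts, the posterior mean and leaving out each library.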

Additional observations from a re-analysis of the deposited data

How the results depend on the processing

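The count of factors detected, 3, was 7 with TPM rescaled to protein-coding genes and ran from 3 to 4 with either library left out. The share of all genes detected at these settings was not computed. The count of pairs apart, 11, was 3 with a pseudocount of 1 TPM, which shrinks ratios of low genes by construction. It ran from 11 to 12 with either library left out, and was 10 by posterior mean, a setting added after the data were seen. The share of all gene pairs apart was computed for the main setting alone. The count past 2-fold between the libraries, 0, was 2 at a fold of 1.5, for Lmx1a and Pitx3, beside 27.7% of genes. The other 14 values of these counts stayed within 1.5 times, or at 0. Of the values for single factors, 9 moved past their spread and 68 did not. Part of these 68 was fixed in advance. With 2 libraries, leaving 1 out cannot move a mean past its SD, and Foxa1 and Nkx6-1 have no second transcript. The scalings of counts, with log2 scales from 0.579 to 0.643, also shift the ratio of every factor by the same amount. The mean of Pitx3 was 0.775 TPM by posterior mean, and the share of its leading transcript 63.6%. The cause was not tested. No paired analysis was possible because the design has 1 group. With 34 to 89 counts for Pitx3 and 39 to 79 for Nkx6-1, depth limits what can be said of their ratios.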
